A study of Drosophila melanogaster with 4 samples.

Results

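The interior of the X chromosome is the assembled X sequence that lies more than 5 Mb from either end, X 5000001 to 17422827 in FlyBase release 5. Its enriched regions for the protein Su(var)3-7 were chosen by position: a region of the combined list belonged to it when its midpoint fell in that interval. This gave 725 of the 10603 regions of the combined list. The rule used no score, width or overlap. The protein was mapped by ChIP-seq (immunoprecipitation of fixed chromatin, then sequencing of its DNA) with antibody Q3448 in *Drosophila melanogaster* embryos aged 14 to 16 h. All embryos were wild-type Oregon-R, fixed with formaldehyde. There are 2 ChIP libraries and 2 inputs of genomic DNA, and the labels give no sex. The authors called enriched regions in each ChIP replicate and deposited a further list for the replicate set, called the combined list here. The lists give a start, an end and a score per region. They hold no read counts, and sequencing depth is unknown.

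Su(var)3-7 has zinc fingers and belongs to heterochromatin, the compact and repeat-rich chromatin near centromeres, where it is a partner of HP1. It was found through mutations that relieve the silencing of genes placed beside heterochromatin. The interior of X is mostly gene-rich euchromatin. In males this chromosome is bound by the dosage compensation complex, which raises its transcription, and loss of Su(var)3-7 is known to change the shape of the male X polytene chromosome in larval salivary glands.

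The first question was how much of the X interior was enriched. Su(var)3-7 regions were short and scattered there, and sparser than in the flanking X sequence. Replicate 1 had 263 regions over 575 kb, or 4.63% of the 12.4 Mb, and replicate 2 had 319 regions over 679 kb, or 5.46%. The mean was 5.05% ± 0.589 of the sequence and 23.4 ± 3.19 regions per Mb (SD, n = 2). Nothing in the labels says that the replicates are separate embryo collections, so their spread may be technical. In the combined list the 725 regions covered 1529 kb, or 12.3%, at 58.4 regions per Mb. The combined list held more regions here than the replicate lists have between them.

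Within X, the interior was covered less densely than the sequence on either side. Coverage was 5.05% ± 0.589 in the interior, 11.8% ± 0.820 from 1 to 5 Mb at the distal side and 11.6% ± 0.221 in the proximal 5 Mb next to the centromere (SD, n = 2). The interior had 0.425 ± 0.0202 times the coverage of the distal interval and 0.433 ± 0.0423 times that of the proximal one. These differences were larger than the spread between the replicates, and no test was run on them. In the combined list the corresponding values were 12.3% in the interior, 22.0% at the distal side and 23.8% at the proximal side.

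Against autosomal sequence cut the same way, the X interior was covered slightly less than the interiors of 3 arms together, and the direction changed with the arm and the scores used. The interiors of 2L, 3L and 3R, each more than 5 Mb from both ends of its arm, were covered over 5.69% ± 0.439 together, against 5.05% ± 0.589 of the X interior (SD, n = 2). The ratio of X interior to these interiors was 0.861 in replicate 1 and 0.911 in replicate 2. The mean log2 ratio was -0.18, with X lower in 2 of 2 replicates. An exact two-sided sign-flip permutation test over 2 replicates cannot go below p = 0.5, the value it gave, and so tells nothing for or against a difference. The order depended on the arm. Coverage of the X interior was 1.04 ± 0.0182 times that of the 2L interior, 0.783 ± 0.0692 times that of 3L and 0.889 ± 0.00734 times that of 3R. In the higher-scoring 50% of each list the ratio to the 3 arms together was 1.32, above 1. A limit set on the score of a whole list keeps more of the X interior, whose scores were higher. In the combined list the X interior was covered over 12.3% and the 3 arm interiors over 12.5%.

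The second question was how the regions are spaced. They were unevenly spread, in the same pattern in both replicates. In 24 windows of 500 kb, replicate 1 had from 2 to 22 regions with a median of 10.0, replicate 2 from 2 to 23 with a median of 13.5, and the combined list from 12 to 50 with a median of 30.0. The variance of the window counts was 2.59 times their mean in replicate 1 and 2.42 times in replicate 2, and 3.72 times for combined regions. Window counts of the replicates had a Pearson r of 0.885 and a Spearman rho of 0.823, and covered percentages an r of 0.961 and a rho of 0.946. These describe 24 windows of the same pair of libraries, which share strain, stage, antibody and genome.

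The fullest windows lay in the distal part of the interval, with others towards its proximal end. The window X 6500001 to 7000000 was covered over 11.5% in replicate 1, over 12.3% in replicate 2 and, with the lists combined, over 23.1%. The window X 5500001 to 6000000 followed with 9.46%, 11.1% and 21.2%, and X 13000001 to 13500000 had 8.26%, 11.0% and 19.8%. By number of combined regions, X 16000001 to 16500000 led with 50 regions, of which 9 overlapped both replicates. The emptiest window of the replicate lists was X 14000001 to 14500000, covered over 0.727% in replicate 1 and 0.723% in replicate 2, with 2 regions in each. Its 17 combined regions covered 4.97%, and 14 of them overlapped no replicate region. The window X 12000001 to 12500000 was low in the 3 lists, at 1.04%, 1.33% and 3.56%.

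**Figure D1:**
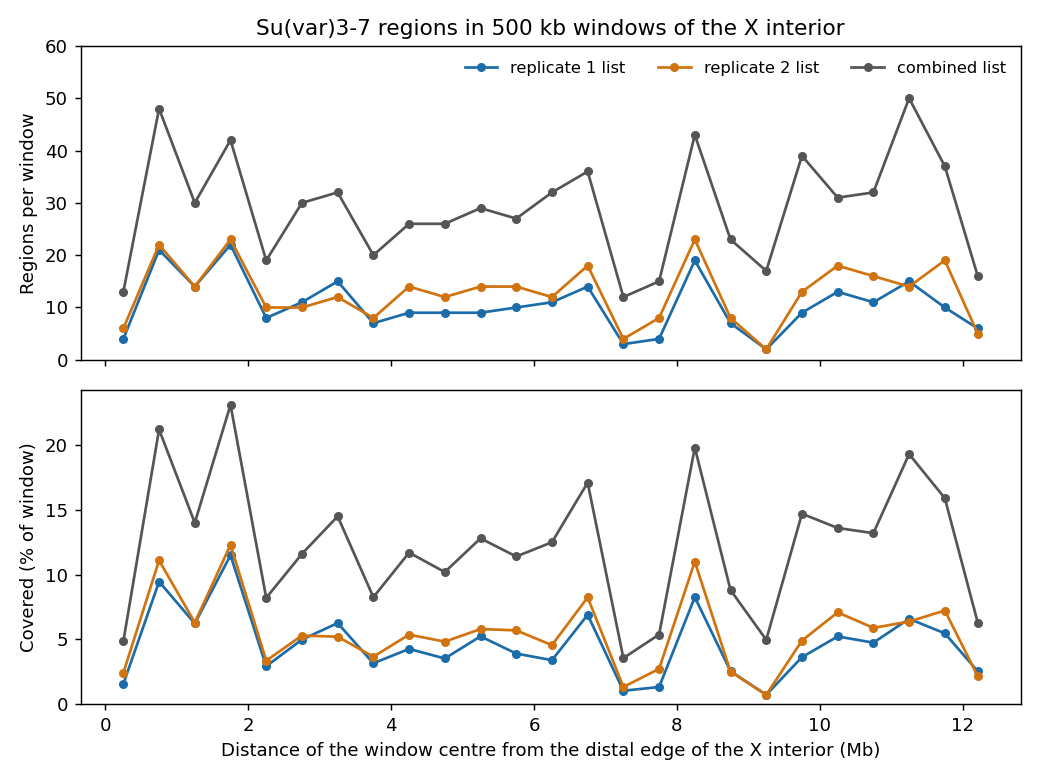
Number of enriched regions (upper plot) and covered percent (lower plot) in consecutive 500 kb windows of the X interior, by distance from its distal edge in Mb; the last window is shorter. The replicate lists follow each other from window to window, between 2 and 23 regions in the 24 full windows, and the combined list lies above them at 12 to 50.

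Gaps between neighbouring regions, counted in bases, had a median of 22070 bp in replicate 1, 16664 bp in replicate 2 and 4942 bp in the combined list. In the interiors of 2L, 3L and 3R together the medians were 15158, 12422 and 5006 bp in the same lists. In the combined list 139 of 724 gaps (19.2%) were 1 kb or shorter. A run of at least 3 regions with gaps of at most 10 kb was called a cluster. By that definition 536 of the 725 combined regions (73.9%) lay in 98 clusters. The median gap of 4942 bp is below the 10 kb limit and near the 5006 bp of the autosomal interiors, so a dense list meets the definition readily. No such share is given for other sequence, so 73.9% is not read as a trait of the X interior. In the sparser replicate lists, clusters held 64 of 263 regions (24.3%) of replicate 1, in 19 clusters, and 118 of 319 (37.0%) of replicate 2, in 32.

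The cluster with the most combined regions was X 14929021 to 14995268, with 14 regions over 66248 bp and 44.4% of its span covered. Replicate 1 had 5 regions in it and replicate 2 had 7, and 4 of the 14 overlapped both. The next were X 6144827 to 6205216 and X 8011029 to 8051444, with 13 regions each. In the first of these 3 regions overlapped both replicates and 5 neither. The other was the denser, with 64.0% of 40416 bp covered, yet 2 of its regions overlapped both replicates and 8 neither. Replicate support was close inside and outside clusters. Of clustered regions 24.4% (95% Wilson interval 21.0 to 28.3) overlapped both replicates, against 23.8% (18.3 to 30.4) of the 189 regions outside clusters. Median widths were 1790 bp in clusters and 1718 bp outside them, and median scores 0.447 and 0.427.

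Stretches of at least 100 kb without a region numbered 20 in the combined list and took up 2.75 Mb, or 22.1% of the interval. They numbered 31 in replicate 1 (47.2% of the interval) and 27 in replicate 2 (40.2%). The longest in the combined list was X 7235903 to 7473792, 237890 bp, followed by X 14180692 to 14368736 (188045 bp) and X 9268021 to 9445224 (177204 bp). Each of these 3 held 0 regions of either replicate. The combined list comes from the same libraries, and 98.5% of replicate 1 and 98.1% of replicate 2 regions here overlapped it. Its empty stretches could therefore hold few replicate regions, and their absence is no separate support. Of the 20 stretches, 14 were touched by 0 replicate regions and 0 by a region of replicate 1. A region of replicate 2 reached past the edge of 5, and 1 stretch, X 12862632 to 12985251, held a whole replicate 2 region, X 12927157 to 12928642 (score 0.957). In the replicate lists the longest stretches were X 13718414 to 14171166 in replicate 1 (453 kb) and X 14173213 to 14735822 in replicate 2 (563 kb). The replicate 1 stretch ends and the replicate 2 stretch starts at 1 shared region, X 14171167 to 14173116 in replicate 1 (score 0.752) and X 14171193 to 14173212 in replicate 2 (score 1.00). An absent region says that no enrichment was called, not that the protein was absent.

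The third question was how wide the regions are and how they score. Widths were close across the lists and arms. The median was 1899 bp in replicate 1, 1912 bp in replicate 2 and 1766 bp in the combined list of the X interior, and 1918, 1915 and 1760 bp in the interiors of 2L, 3L and 3R. Regions of the flanking X sequence were wider, with medians of 2076, 2037 and 2059 bp at the distal side and 2002, 2031 and 1869 bp at the proximal side. The narrowest regions of the X interior measured 1301 bp in replicate 1, 1303 bp in replicate 2 and 1001 bp in the combined list. The widest measured 7465, 7554 and 14250 bp.

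The 5 widest combined regions found in both replicates each overlapped several replicate regions. The widest, X 6637350 to 6651599 (14250 bp, score 0.729), spanned 3 regions of replicate 1 and 2 of replicate 2. The stretch X 6445083 to 6456702 (11620 bp, score 0.786) spanned 3 of each, and in both replicates the region at its low-coordinate end scored highest, 0.985 in replicate 1 and 1.36 in replicate 2. X 11575342 to 11586673 (11332 bp, score 1.06) spanned 2 regions of replicate 1 and 3 of replicate 2. It lay near X 11605099 to 11613964 (8866 bp, score 0.594), which spanned 3 of each. The fifth was X 16545162 to 16552852 (7691 bp, score 0.633), with 2 and 3. Over the interval 13 combined regions overlapped at least 2 regions of replicate 1 and 18 at least 2 of replicate 2.

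The deposited score is the authors' own value per region. No source used here states its scale. It serves here to describe and rank regions, and differences were read within a list. Regions of the X interior had higher scores than regions of the autosomal interiors in each of the 3 lists. The median was 0.596 in the X interior and 0.519 in the interiors of 2L, 3L and 3R in replicate 1, a difference of 0.0768. In replicate 2 the medians were 0.718 and 0.624, a difference of 0.0947, and in the combined list 0.444 and 0.378, a difference of 0.0652. Taken alone, the medians of 2L, 3L and 3R were 0.520, 0.518 and 0.514 in replicate 1 and 0.634, 0.620 and 0.617 in replicate 2, so each arm lay below X in 2 of 2 replicates. No test is given, for the same limit of 2 replicates.

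The difference was present at the low end of the lists too. The 10th percentile of the scores was 0.432 in the X interior and 0.378 in the 3 arm interiors in replicate 1. It was 0.545 and 0.463 in replicate 2, and 0.344 and 0.270 among combined regions. Scores were also higher in the flanking X intervals than in the autosomal interiors. They had medians of 0.640, 0.783 and 0.478 at the distal side and 0.646, 0.775 and 0.474 at the proximal side, with the lists in the same order. These exceeded the medians of the X interior in the same lists.

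**Figure D2:**
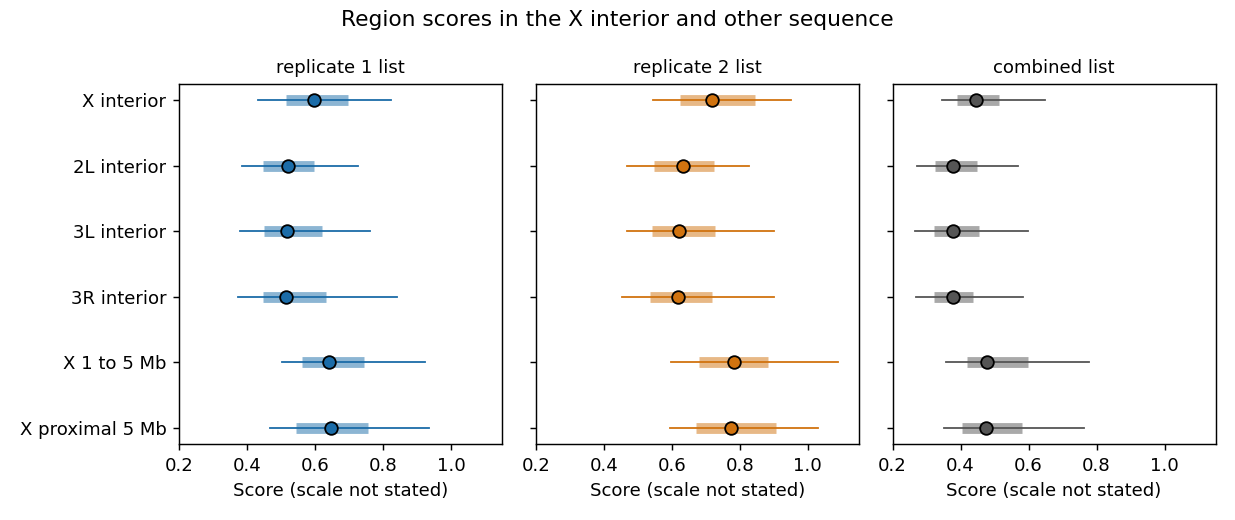
Scores of enriched regions in the X interior, 3 autosomal interiors and the flanking X sequence, 1 plot per list. Circles are medians, thick bars run from the first to the third quartile and thin lines from the 10th to the 90th percentile; the X interior lies to the right of the autosomal interiors in each plot (medians 0.596, 0.718 and 0.444) and to the left of both flanking X intervals.

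Among combined regions found in both replicates, the highest scores lay at scattered positions. X 14929021 to 14931451 (2431 bp) led with a combined score of 1.31 and scores of 1.36 in replicate 1 and 1.07 in replicate 2. It stands at the edge of the cluster with 14 regions described above, and the replicate 1 region that overlaps it also reaches the next combined region, X 14932161 to 14934090 (score 1.37). X 10109724 to 10111849 (2126 bp) scored 1.30, with 1.31 in replicate 1 and 1.29 in replicate 2. Its replicate regions measured 2122 and 2093 bp, so the 3 lists placed it almost alike.

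X 16316018 to 16321895 (5878 bp) scored 1.28, with 1.37 and 1.53 in replicates 1 and 2, and held the highest replicate score of the interval. X 5417701 to 5419825 (2125 bp) scored 1.12, with 0.879 and 1.28. X 11575342 to 11586673, one of the 5 widest, followed with 1.06. The other 5 of the first 10 scored 0.941 to 1.04 in the combined list and measured 3007 to 7099 bp. They were X 13455719 to 13458725, X 6890035 to 6896511, X 7825818 to 7832916, X 16163869 to 16167095 and X 13256604 to 13260802.

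The highest scores of the combined list were not among these. They belonged to narrow regions that neither replicate list holds. X 14175925 to 14176926 (1002 bp) had a score of 3.28, X 13895712 to 13896712 (1001 bp) 2.96 and X 14179691 to 14180691 (1001 bp) 2.18. Another, X 14177512 to 14178951 (1440 bp, score 2.04), was named after its value was seen. Of these 4 regions, 3 lay within 5 kb of each other beside the shared replicate region at X 14171167 to 14173116, from which they were separated by 2809 to 6575 bp in replicate 1. The remaining one lay 177299 bp from the nearest region of replicate 1 and 177511 bp from that of replicate 2. The last of the 3 borders the empty stretch of 188045 bp described above, and the region that ends at X 13896712 borders another of 160468 bp. Combined regions with a score above 2 numbered 4 of 725 in the X interior and 2 of 2576 in the interiors of 2L, 3L and 3R, and in both places 0 of them overlapped both replicates. Above a score of 1 there were 14 in the X interior, 6 in both replicates and 7 in neither, and 42 in the 3 arm interiors, 32 in both and 6 in neither. Over all sequence such scores were more common. A score above 2 was held by 0.552% of combined regions in the X interior and by 1.29% over all sequence, where 47 of 137 overlapped both replicates. A score above 1 was held by 1.93% and 11.2%.

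**Figure D3:**
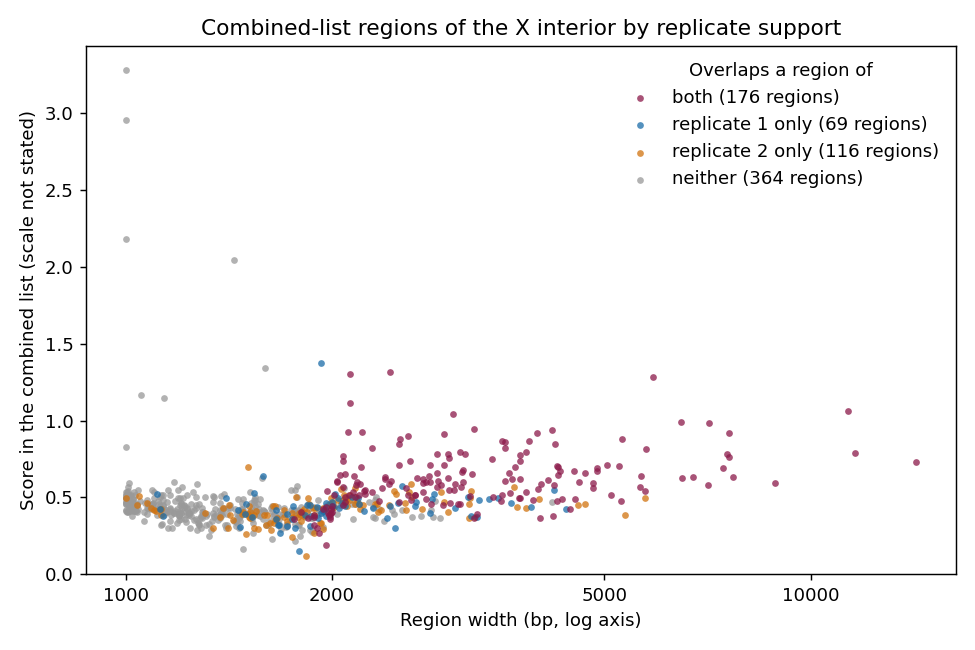
Width (bp, log axis) and score of the 725 combined regions of the X interior, coloured by the replicate lists they overlap. Regions found in both replicates (176) lie mostly above 2000 bp, and the 4 regions with a score above 2 are narrow and overlap neither replicate.

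The last question was how far the replicates support the regions. A region counted as shared when it overlapped a region of the other list by at least 1 bp. Of the replicate 1 regions of the X interior, 187 of 263 (71.1%, 95% Wilson interval 65.4 to 76.2) were shared with replicate 2, where 75.8% of replicate 1 regions were shared over all sequence. Of the replicate 2 regions, 192 of 319 (60.2%, 54.7 to 65.4) were shared with replicate 1, against 79.5% over all sequence. In the interiors of 2L, 3L and 3R the shares were 74.9% (72.2 to 77.4) and 68.0% (65.3 to 70.5). Wilson intervals reflect counting error alone and take each region as independent of its neighbours. Of the bases covered in either replicate, 397 of 857 kb lay in both, a Jaccard index of 0.463 in the X interior. The index was 0.513 in the 2L interior, 0.546 in 3L and 0.522 in 3R, and 0.577 and 0.541 in the distal and proximal X intervals.

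Shared regions were wider than the others. In replicate 1 the median width was 2033 bp for shared regions and 1521 bp for the rest, and in replicate 2 it was 2071 and 1537 bp. Median scores were 0.606 and 0.556 in replicate 1 and 0.750 and 0.684 in replicate 2. The midpoints of the 187 overlapping pairs lay a median of 156 bp apart. Their scores had a Spearman rho of 0.597 and a Pearson r of 0.681, given as a description over 187 pairs from the same pair of libraries.

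**Figure D4:**
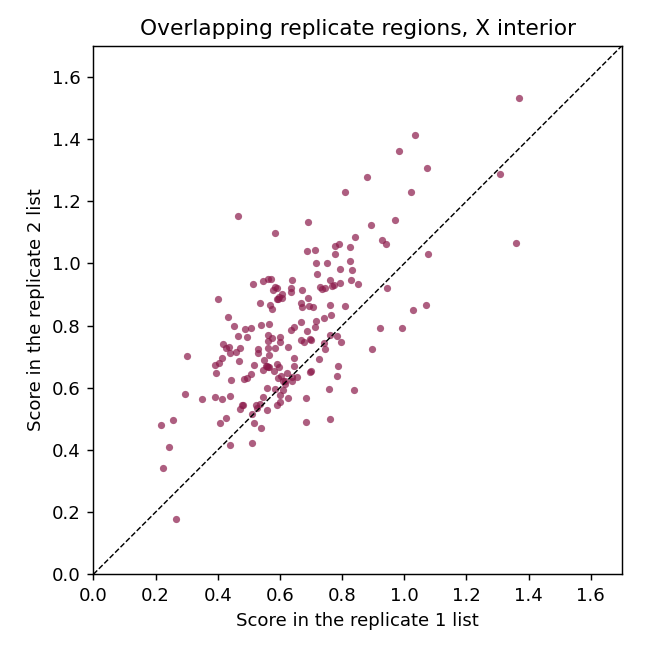
Score in replicate 2 against score in replicate 1 for the 187 replicate 1 regions of the X interior that overlap a replicate 2 region, with the line of equal scores dashed. Regions that score high in 1 list tend to score high in the other (rho 0.597), and 150 of the 187 points lie above the line, on a scale that is not stated to be common to the lists.

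Of the 725 combined regions, 176 (24.3%, 21.3 to 27.5) overlapped both replicates, where 38.6% did so over all sequence. Replicate 1 alone was overlapped by 69 (9.52%), replicate 2 alone by 116 (16.0%), and neither by 364 (50.2%, 46.6 to 53.8), against 38.7% in neither over all sequence. In the interiors of 2L, 3L and 3R, 767 of 2576 (29.8%, 28.0 to 31.6) overlapped both and 1204 (46.7%, 44.8 to 48.7) neither. In the distal and proximal X intervals 40.4% (35.1 to 46.0) and 33.4% (29.3 to 37.8) overlapped both. The share in the X interior was the lowest of these, and its interval of counting error did not reach that of the 3 arm interiors together or of either X flank. Taken alone, the arms had shares of 29.9% (26.6 to 33.5) on 2L, 31.0% (28.2 to 34.1) on 3L and 28.5% (25.7 to 31.4) on 3R, and the intervals of 2L and 3R overlap that of X. The difference was not tested.

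By bases, 40.4% of the covered sequence of the X interior lay in regions found in both replicates and 34.0% in regions found in neither. The median width was 2962 bp for regions in both, 1963 bp for replicate 1 alone, 1864 bp for replicate 2 alone and 1298 bp for neither. The median score was 0.598 for regions in both and 0.438, 0.426 and 0.423 for the other classes in that order. Regions in 1 replicate alone had a median score close to that of regions in neither. For the 364 regions in neither, the nearest region of either replicate was a median of 4778 bp away, within 1 kb for 66 and within 10 kb for 261. The nearest combined region found in both replicates was a median of 11690 bp away and within 10 kb for 162. The median gap between neighbouring combined regions was 4942 bp. A gap runs to 1 side within 1 list, so it is not a like measure for these nearest distances.

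Support was more frequent among wide regions and at the top of the scores. A wider region meets an overlap of 1 bp more readily by construction, so width partly fixes its support, and the narrowest class lies below the narrowest replicate regions, 1301 and 1303 bp. When the 725 regions were split at the quartiles of their width, 0 of 182 in the narrowest class overlapped both replicates, which allows a share of up to 1.65%. The share was 0.549% from 1275 to 1766 bp, 28.3% (22.3 to 35.3) from 1766 to 2367 bp and 68.5% (61.4 to 74.8) above that. In the autosomal interiors the same width classes gave 0 of 581, which allows up to 0.516%, then 1.54%, 42.3% (38.4 to 46.3) and 73.1% (69.7 to 76.3). By quartile of score the shares in the X interior were 8.24% up to 0.390, 5.52% from there to 0.444, 14.4% (10.00 to 20.2) to 0.514 and 69.1% (62.0 to 75.3) above.

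At the same score, the share of regions in both replicates was lower in the X interior than in the autosomal interiors, except in the lowest class. Between 0.444 and 0.514 the share was 14.4% (10.00 to 20.2) in the X interior and 64.9% (58.9 to 70.6) in the interiors of 2L, 3L and 3R. Above 0.514 it was 69.1% (62.0 to 75.3) and 92.2% (89.2 to 94.5), and up to 0.390 it was 8.24% and 8.18%. Width was not matched within these classes. Median widths in the X and autosomal interiors were 1846 and 2372 bp between 0.444 and 0.514. They were 2661 and 3295 bp above 0.514, and 1624 and 1546 bp up to 0.390. In the width classes given above the shares lay closer, at 28.3% and 42.3% from 1766 to 2367 bp and 68.5% and 73.1% above that. How far width accounts for the gap at equal score was not tested. The autosomal scores lie lower as a whole, with 55.6% of these regions in the lowest class against 25.1% on X. With each set split at its own quartiles, the shares in the top quartile were 69.1% (62.0 to 75.3) in the X interior and 81.8% (78.7 to 84.6) in the autosomal interiors. In the third they were 14.4% (10.00 to 20.2) and 21.4% (18.4 to 24.8), whose intervals overlap. The gap was smaller with each set at its own quartiles than at equal scores. In the replicate lists, split at the score quartiles of their X interior regions, the gap was largest in the third class. Between 0.596 and 0.698 in replicate 1, 61.5% (49.4 to 72.4) of X interior regions and 92.4% (86.8 to 95.7) of autosomal ones were shared with replicate 2. Between 0.718 and 0.844 in replicate 2, 51.9% (41.1 to 62.6) and 86.5% (80.4 to 90.9) were shared with replicate 1. In the lowest class the shares were 65.2% (53.1 to 75.5) in the X interior and 63.5% (59.3 to 67.5) in the autosomal interiors of replicate 1, and 53.8% (42.9 to 64.3) and 55.4% (51.5 to 59.4) in replicate 2. The second class gave 63.6% and 73.7% in replicate 1 and 48.8% and 68.4% in replicate 2. In the top class they were 93.9% (85.4 to 97.6) and 98.8% (95.6 to 99.7) in replicate 1, and 86.2% (77.0 to 92.1) and 96.2% (92.0 to 98.2) in replicate 2. No test of these differences was made.

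**Figure D5:**
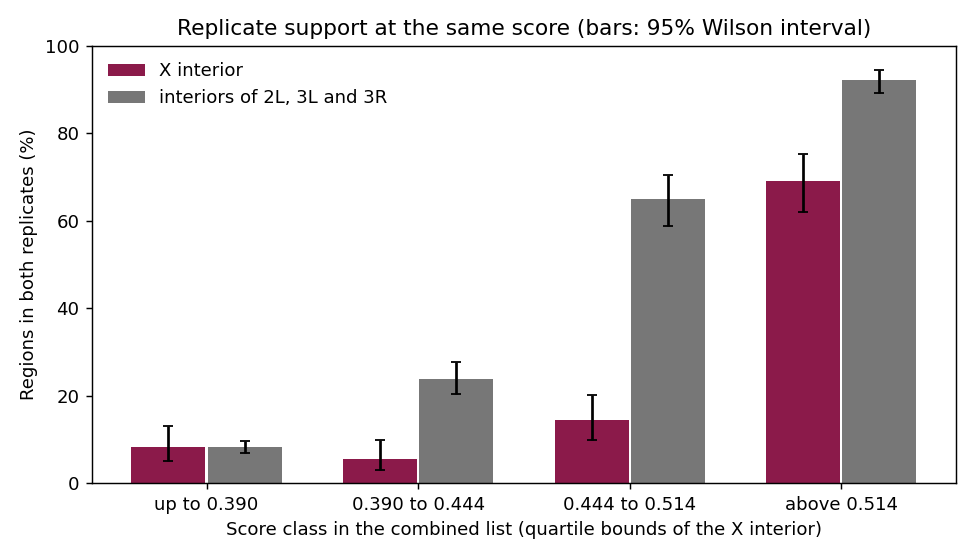
Percent of combined regions that overlap both replicates, in 4 score classes bounded by the quartiles of the X interior, for the X interior and for the interiors of 2L, 3L and 3R. Lines are 95% Wilson intervals for counting error. The sets differ most between 0.444 and 0.514, at 14.4% in the X interior and 64.9% in the autosomal interiors. Width is not matched within a class, and in that class the median widths are 1846 and 2372 bp.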

How the data were processed

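The submitters' processing notes name Bowtie 0.12.7 as the aligner. Per the file headers, positions refer to FlyBase release 5. The authors deposited a score per region in 3 lists, 1 for each ChIP replicate and 1 combined. The region caller, its thresholds, repeat handling and the making of the combined list are not stated in any source used. The inputs have no list, and depth is unknown.

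Regions were assigned to intervals by midpoint and covered bases counted once, with Python 3.11.15, numpy 2.4.6, pandas 2.3.3 and scipy 1.17.1. The overlap, gap and cluster functions were tested on simulated regions. Shares carry 95% Wilson intervals (counting error only), and a share of 0 allows 3 counts. Members, intervals and definitions were chosen with earlier results of these data known. Named regions are the 10 highest scores and 5 widest found in both replicates, the 3 highest scores found in neither, the 3 largest clusters and the 3 longest empty stretches. Only a release 6 gene table was at hand, whose positions differ, so no gene or sequence is given. Alternatives were other overlaps, cluster and stretch limits, higher-scoring regions, means and each replicate alone.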

Additional observations from a re-analysis of the deposited data

How the results depend on the processing

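Of the values recomputed under other settings, 19 counted as unchanged, 16 moved and 2 reversed. Coverage and density had to stay within the SD, a share or median within its counting error and a count within 1.5 times. The coverage ratio had only to stay on the same side of 1, so 0.783 against 3L alone counted as unchanged though beyond the SD of 0.0351. With either replicate alone, coverage was 4.63% to 5.46% and density 21.2 to 25.7 regions per Mb. Each of 2 replicates lies within the SD of their mean by construction, so these values count as unchanged whatever the data. In the same setting the coverage ratio of the X interior to the interiors of 2L, 3L and 3R was 0.861 to 0.911. The share of combined regions outside the 1 list searched was 59.7% to 66.2%. In the higher-scoring 50% of each list, coverage was 2.80% and the ratio reversed to 1.32. With both replicate lists cut to that 50%, 67.6% of replicate 1 and 45.3% of replicate 2 regions were shared. The list searched was cut too, so matches are lost by construction. Against the full replicate 1 list, 86.2% of the top score class of replicate 2 (above 0.844) and 51.9% of the third (0.718 to 0.844) were shared. These classes are quartiles of the X interior and not the same set as the higher-scoring 50%, so they do not measure that loss. Of the higher-scoring 50% of the combined list, 38.8% overlapped both full replicate lists. Against 2L alone the ratio reversed to 1.04. With 50% reciprocal overlap, which matches fewer regions by construction, the shares were 64.3% of replicate 1, 53.0% of replicate 2, 18.8% of combined regions in both and 54.5% in neither. Clusters of at least 5 regions numbered 51. Empty stretches of the combined list numbered 58 from 50 kb and 4 from 150 kb, against 20 from 100 kb. At 100 kb there were 31 in replicate 1, 27 in replicate 2 and 32 among combined regions in both. The mean width was 2109 bp and the mean score 0.488. No paired analysis was possible because the input libraries, which share replicate numbers with the ChIP libraries, have no list of regions. The ratio of X to autosomal interiors was taken within each replicate.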

Other observations

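Regions of a replicate that the combined list lacks altogether numbered 4 of 263 in replicate 1 and 6 of 319 in replicate 2 of the X interior, against 2 of 1091 and 11 of 1221 in the interiors of 2L, 3L and 3R. These were 1.52% and 1.88% in the X interior, against 0.476% and 0.794% over all sequence. None of the 10 in the X interior overlapped the other replicate. Their widths were 1303 to 1912 bp. The one with the highest score, chosen after its value was seen, was X 12927157 to 12928642 in replicate 2, at 0.957.

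Some regions have exactly the same score. In the X interior 67 of 725 combined regions shared their score with another region there, and over all sequence 3212 of 10603 did. A larger set offers more partners for a tie, so these counts are not compared. The 67 leave out X interior regions tied only with regions elsewhere. The score of 3.28 of X 14175925 to 14176926 was held by 8 combined regions over all sequence. Among them were 2L 10593315 to 10594316 (1002 bp) and U 6671160 to 6674828 (3669 bp). The region on 2L overlapped neither replicate, and the one on U, which is unplaced sequence, overlapped both. Other holders were 3RHet 722299 to 723306 and 3RHet 2011449 to 2012452, in pericentric sequence of 3R, U 983521 to 984521 and U 1741234 to 1742242. They measured 1001 to 1009 bp and overlapped neither replicate, so the wide region on U was the exception among those named.

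At the distal edge of the interval the first region inside was X 5023822 to 5024829 (1008 bp, score 0.569, in neither replicate) and the last outside X 4990153 to 4997811 (7659 bp, score 0.866, in both). At the proximal edge the last inside was X 17407871 to 17409812 (1942 bp, score 0.411, in replicate 1 alone) and the first outside X 17424586 to 17428404 (3819 bp, score 1.05, in both).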
